A study of Homo sapiens with 2 samples.

Results

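The genes described here are 9 members of the p16, RB and p53 pathways that brake the cell cycle in G1: the INK4 inhibitors CDKN2A, CDKN2B and CDKN2C, the CIP/KIP inhibitors CDKN1A and CDKN1B, the kinase pair CCND1 and CDK4, the pocket protein gene RB1 and the p53 antagonist gene MDM2. They were chosen by name, and every probe that the platform annotation assigns to their symbols was read. Of the 9 genes, 8 had a probe, with 15 probes in all among the 47323 of the array. CDKN2C, which encodes p18, had none in that annotation, so its level was not measured here. RNA was taken from HCT-8/V, described as resistant to vincristine, and from HCT-8, both labelled as human colon cancer lines. Per the labels, both were given the plasmid pcDNA3.1-Twist 48 h before RNA extraction, so cell line was the only labelled contrast. Both carry the same treatment text, so the labels leave unsettled whether either culture served as an untreated control. Each line had 1 Illumina bead array, neither array was labelled as lacking the plasmid, and no replicate check of any value exists. Clone number and the vincristine exposure of HCT-8/V were not stated in the labels.

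In textbook terms, cyclin D1 with CDK4 phosphorylates RB, which releases E2F factors that switch on genes for S phase. INK4 proteins bind CDK4 and CDK6 and keep D cyclins off them, while the CIP/KIP proteins p21 and p27 bind whole cyclin-CDK complexes, above all those of CDK2. The CDKN2A locus also encodes ARF, read in another frame from an upstream first exon, and ARF holds back MDM2, the ligase that marks p53 for degradation. p53 in turn induces CDKN1A and MDM2. Twist proteins are known to bypass senescence by interfering with both arms, and colon tumours often silence CDKN2A by promoter methylation.

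Promoter windows are shown for 4 members whose starts bear on these arms: the separate starts of CDKN2A that serve its ARF and p16 transcripts, the neighbouring CDKN2B, and the p53-inducible CDKN1A and MDM2. The windows are those of RefSeq on GRCh38.p14, from 250 bases before to 50 after a transcript start. They are written 5′ to 3′ on the gene's own strand, and capitals mark the E-box CANNTG, the kind of site that Twist proteins bind as basic helix-loop-helix factors.
CDKN2A, upstream (ARF) start, chr9:21995275-21995574, minus strand: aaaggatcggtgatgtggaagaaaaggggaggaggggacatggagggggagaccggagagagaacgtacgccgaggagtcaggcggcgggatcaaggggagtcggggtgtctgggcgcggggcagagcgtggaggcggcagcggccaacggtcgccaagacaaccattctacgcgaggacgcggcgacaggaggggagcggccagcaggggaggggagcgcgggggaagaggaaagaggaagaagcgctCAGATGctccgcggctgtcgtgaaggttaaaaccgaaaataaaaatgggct
CDKN2A, downstream (p16) start, chr9:21974808-21975107, minus strand: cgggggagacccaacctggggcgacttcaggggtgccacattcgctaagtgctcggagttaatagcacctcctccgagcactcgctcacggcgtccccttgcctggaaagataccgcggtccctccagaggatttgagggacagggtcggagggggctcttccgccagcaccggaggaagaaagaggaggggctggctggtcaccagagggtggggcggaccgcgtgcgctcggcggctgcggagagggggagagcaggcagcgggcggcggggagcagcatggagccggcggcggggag
CDKN2B, chr9:22009256-22009555, minus strand: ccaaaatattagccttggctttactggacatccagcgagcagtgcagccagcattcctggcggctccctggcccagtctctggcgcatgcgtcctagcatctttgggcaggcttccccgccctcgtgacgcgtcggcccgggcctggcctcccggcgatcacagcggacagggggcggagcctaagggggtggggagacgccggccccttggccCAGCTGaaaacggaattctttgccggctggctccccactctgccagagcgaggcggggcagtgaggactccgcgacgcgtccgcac
CDKN1A, chr6:36678464-36678763, plus strand: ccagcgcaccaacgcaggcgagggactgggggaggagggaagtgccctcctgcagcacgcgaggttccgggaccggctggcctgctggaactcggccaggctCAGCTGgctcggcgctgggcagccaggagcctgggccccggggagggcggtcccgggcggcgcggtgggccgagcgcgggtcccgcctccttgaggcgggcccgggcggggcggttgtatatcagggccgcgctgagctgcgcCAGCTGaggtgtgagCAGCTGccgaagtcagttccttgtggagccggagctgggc
MDM2, downstream start, chr12:68808767-68809066, plus strand: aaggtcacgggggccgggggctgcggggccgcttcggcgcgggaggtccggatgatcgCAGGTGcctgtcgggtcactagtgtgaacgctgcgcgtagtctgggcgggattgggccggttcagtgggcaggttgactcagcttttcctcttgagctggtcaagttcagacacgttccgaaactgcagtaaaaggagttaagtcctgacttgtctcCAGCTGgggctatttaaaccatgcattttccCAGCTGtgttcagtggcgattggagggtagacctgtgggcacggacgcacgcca

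The 2 starts of CDKN2A lie 20467 bases apart. The E-box, which reads the same on both strands as a pattern, occurred once in the ARF window and not in the p16 window, once in the CDKN2B window, and 3 times each in the CDKN1A window and the MDM2 window shown. The table has windows for 8 members, CDKN2C among them and CCND1 not, and the one for RB1 lies at a start inside the gene. Of these 14 windows, some of which overlap, 12 held the E-box, beside 68.7% of the 35116 windows of the table. The GC box GGGCGG, sought on both strands, was in 11 of the 14 (44.95% of all windows), with 4 matches at CDKN1A, 2 at CDKN2B, 2 in the p16 window and none in the ARF window. The letters TTTNNCGC, a loose form of the E2F site, were in 2 of the 14 (6.89% of all windows), both at the upstream start of MDM2 in windows that overlap. These are matches of letters in the reference and not measured binding.

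The labels of the cultures were checked first against lineage markers. Of 12 colon epithelial markers, 6 (CDH1, CDX1, CDX2, VIL1, KRT20 and LGALS4) were below the median of all probes on both arrays. The other 6 were split, with 3 higher and 3 lower in HCT-8/V. Of those lower, CDH17 (log2 difference -0.02) and KRT19 (-0.0009) were nearly level, and KRT19 read barely above that median. EPCAM had the largest difference of the list, at 79.97 in HCT-8/V and 117 in HCT-8. KRT8 read 2283 in HCT-8/V and 2199 in HCT-8, and KRT18 read 560 in HCT-8/V and 445 in HCT-8. Of 8 fibroblast markers, 6 were above that median on at least 1 array and 4 of these read higher in HCT-8/V. COL3A1 (log2 difference -0.41) and FAP (-0.11) read lower. DCN read 854 in HCT-8/V and 625 in HCT-8 on its brightest probe, a log2 difference of 0.45. With the mean of its 4 probes DCN differed by 0.14. The summed intensity of the fibroblast list was 1260 in HCT-8/V and 941 in HCT-8, most of it from the brightest DCN probe. That of the colon list was 3063 in HCT-8/V and 2887 in HCT-8, and that of 4 leukocyte genes 59.8 in HCT-8/V and 60.1 in HCT-8. The part of these markers in the differences below was not tested.

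Intensities are linear array units with the background already subtracted, and levels of different probes cannot be set against each other. Differences are log2 of HCT-8/V minus log2 of HCT-8. A value was raised to the median of all probes on its array, called the floor (12.4 on both arrays), before taking log2. A gene counts as expressed when either array read its brightest probe above the floor, which held for 13763 genes. As a guide to scatter, the SD of the log2 difference over genes was 0.72 where the mean intensity was below the 75th percentile of all probes (81.3), 0.42 between that and 300, 0.33 between 300 and 1000 and 0.25 above 1000. It contains the true differences between the cultures as well as noise.

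No member differed by 2-fold, as 8.01% of expressed genes did. On their brightest probes 4 members read higher in HCT-8/V and 4 lower, where 52.8% of all expressed genes read higher. The median over the 8 was 0.11, beside 0.03 over all expressed genes. At 1.5-fold, 3 of the 8 were past the line (37.5%), against 24.0% of expressed genes. CDKN2A read higher, as 12.8% of expressed genes did by that size, and RB1 and MDM2 read lower, as 11.2% did. With the mean of all probes 1 of the 8, RB1, was past 1.5-fold. That mean is of floored log2 values, so a probe below the floor on both arrays adds almost no difference. With no floor 1, CDKN2A, was past 1.5-fold. That setting added 45.98 to every value before log2, which shrinks differences, most of all on dim probes. Among genes with a mean intensity above the 75th percentile, 10.5% were past 1.5-fold. Of the 15 probes, 11 were above the floor on both arrays and 4 on neither. In HCT-8/V 5 of the 11 read higher and 6 read lower.

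**Figure D1:**
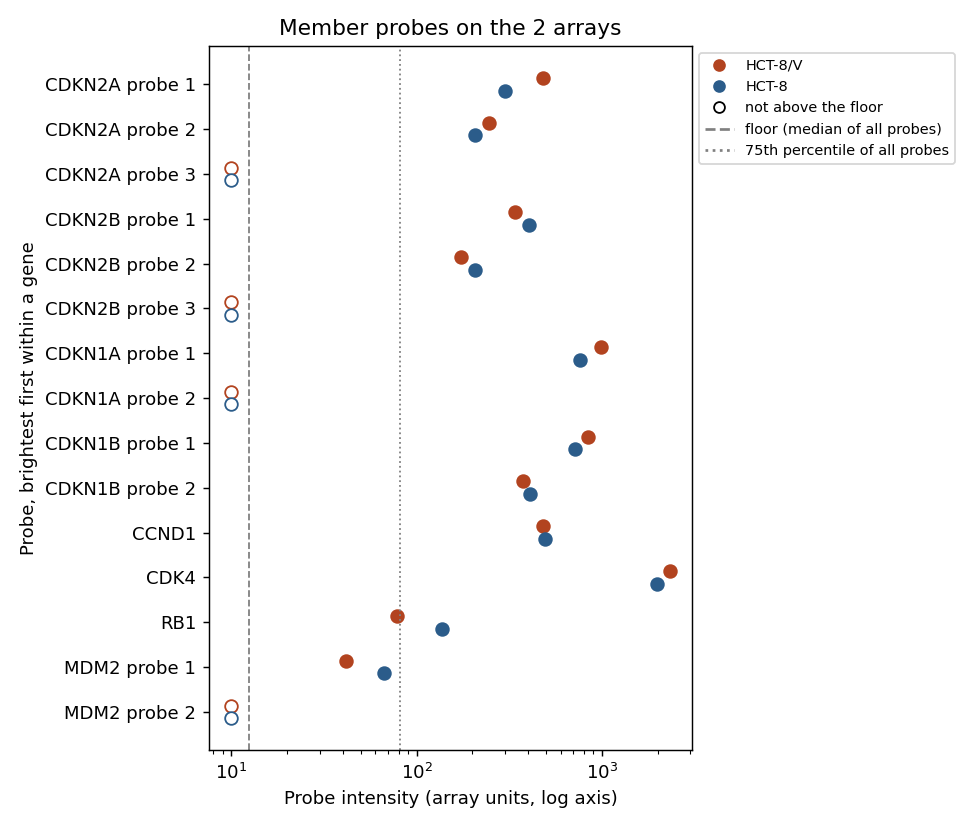
Intensity of each of the 15 member probes (log axis, array units) in HCT-8/V and HCT-8, with 1 point per array and no error bar because there is 1 array per line. Open points, drawn left of the floor, mark values not above it. CDKN2A and RB1 show the widest gaps among probes that exceed the 75th percentile on at least 1 array, in opposite directions.

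CDKN2A, which encodes p16 and ARF, was the inhibitor with the largest difference. The probe assigned to the p16 transcript read 480 in HCT-8/V and 301 in HCT-8, a log2 difference of 0.67, or 1.59-fold higher. The probe assigned to the ARF transcript read 245 in HCT-8/V and 205 in HCT-8, a log2 difference of 0.25, or 1.19-fold. Both probes thus read higher in the resistant line, by unequal amounts, and both were above the 75th percentile on both arrays. With the mean of its probes, to which a probe below the floor on both arrays adds about 0, CDKN2A differed by 0.31. The difference of the p16 probe was 2.01 times the SD of its brightness class, in which 7.85% of genes were past 1.5-fold. The other probe, for a short transcript, was below 0 on both arrays, at -2.94 in HCT-8/V and -4.46 in HCT-8. Probe sequences were not given here, and the p16 and ARF transcripts share their later exons, so how far each probe reads 1 transcript alone is unknown.

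CDKN2B, which encodes p15, the INK4 inhibitor induced by TGF-beta, went the other way from its neighbour on chromosome 9. Its brightest probe read 341 in HCT-8/V and 405 in HCT-8, a log2 difference of -0.25. The second probe, assigned to the other transcript, read 174 in HCT-8/V and 207 in HCT-8, also -0.25. The 2 probes gave the same small difference, which was under 1 SD of the brightness class. The remaining probe was below the floor on both arrays, at 3.13 in HCT-8/V and -6.31 in HCT-8. p15 and p16 are close paralogs, and cross-reading between their probes was not checked.

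CDKN1A, encoding p21, read 983 in HCT-8/V and 765 in HCT-8 on its bright probe, a log2 difference of 0.36, or 1.28-fold higher. Its other probe was below the floor on both arrays, at -14.7 in HCT-8/V and 6.76 in HCT-8, so 1 probe alone measured the gene. CDKN1B, encoding p27, read 844 in HCT-8/V and 711 in HCT-8 on its brighter probe, a log2 difference of 0.25. Its second probe read 375 in HCT-8/V and 407 in HCT-8, a log2 difference of -0.12. Both CDKN1B probes were well above the 75th percentile and carried the same transcript record, and they disagreed in direction, so no direction can be given for p27. The p21 difference was 1.08 times the SD of its class.

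The kinase pair differed little. CCND1, encoding cyclin D1, read 482 in HCT-8/V and 491 in HCT-8 on its single probe, a log2 difference of -0.03. CDK4, the catalytic partner and the target of p16, read 2329 in HCT-8/V and 1972 in HCT-8, a log2 difference of 0.24, or 1.18-fold. The difference of CDK4 was 0.95 times the SD of the brightest class, and that of CCND1 was the smallest of all members.

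RB1, the substrate of cyclin D1 and CDK4, had the largest difference of any member. Its single probe read 78.6 in HCT-8/V and 137 in HCT-8, a log2 difference of -0.80, or 1.74-fold lower. The reading in HCT-8/V lay just under the 75th percentile of all probes and that in HCT-8 above it. In its brightness class 16.3% of genes were past 1.5-fold and 1.98% past 2-fold, and the difference was 1.91 times the SD of that class. With no floor, where 45.98 was added to every value before log2, it was -0.56, under 1.5-fold. Both readings were above the floor, so that change came from the added units and not from the floor. In intensity units it was -58.5, or 5.44 times the SD of the difference between arrays (10.7) over the 13272 probes with a mean below 0, which estimates additive noise in dim probes only. With 1 probe and 1 array per line nothing else in the table measures RB1.

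MDM2 was dim in both cultures, and 1 probe alone measured it. The brighter probe read 41.5 in HCT-8/V and 67.1 in HCT-8, a log2 difference of -0.69, or 1.61-fold lower. The second probe was not above the floor on either array, at 11.8 in HCT-8/V and -11.4 in HCT-8. In intensity units the brighter probe differed by -25.5, or 2.38 times the SD of dim probes. The second probe differed by 23.2 the other way, or 2.16 times that SD. With the mean of both probes the log2 difference was -0.35, under 1.5-fold. The second probe adds about 0 to that mean, because its values are raised to the floor, so the mean is no second measurement. Of genes this dim, 41.2% were past 1.5-fold. MDM2 and CDKN1A, both known p53 targets, were thus on opposite sides of 0 on their brightest probes.

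**Figure D2:**
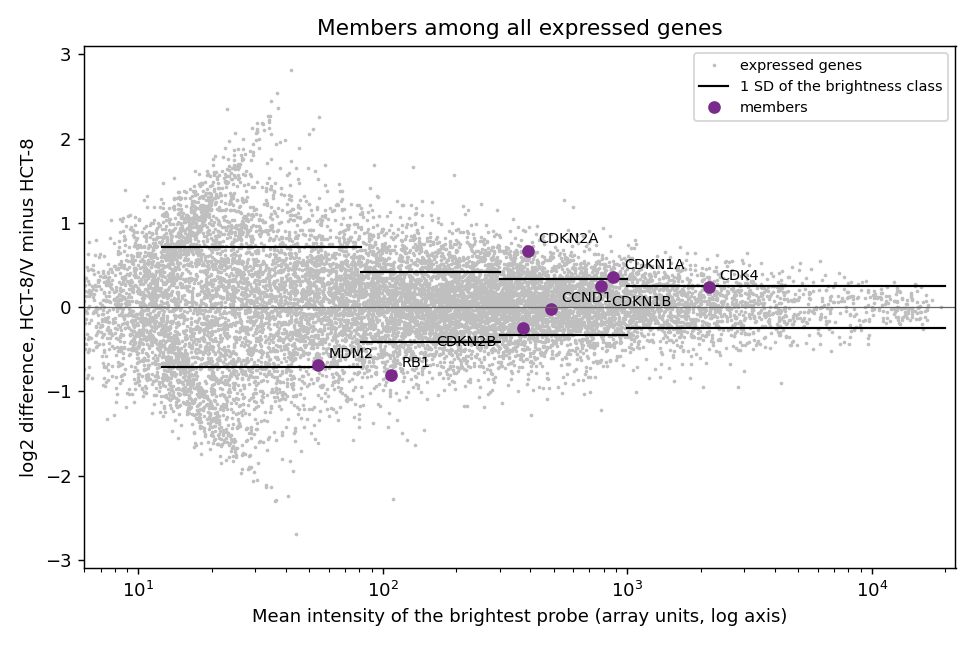
The log2 difference (HCT-8/V minus HCT-8) against the mean intensity of the brightest probe (log axis) for expressed genes, in grey, and the 8 members, in purple. Black lines are 1 SD of the difference on either side of 0 within 4 brightness classes. CDKN2A and RB1 lie outside their lines by about a further SD, while MDM2 lies near the line of the dim class and CDKN1A near that of its own.

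Repeat probes give another measure of error. Among 1535 genes with at least 2 probes above the 75th percentile on both arrays, the 2 brightest had the same direction in 60.3%, and the median gap between their log2 differences was 0.25. The gap between the p16 and ARF probes of CDKN2A (0.67 and 0.25) and that between the CDKN1B probes (0.25 and -0.12) were wider than this median, and that between the CDKN2B probes was narrower.

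The remaining CDK inhibitors, none of which is a member, were read from lists of related genes. CDKN1C, encoding p57, read 455 in HCT-8/V and 309 in HCT-8, a log2 difference of 0.56. CDKN2D, encoding the INK4 inhibitor p19, read 123 in HCT-8/V and 83.1 in HCT-8, also 0.56, while its second probe was below 0 on both arrays. CDKN3, a phosphatase that acts on CDKs, read 655 in HCT-8/V and 703 in HCT-8. No gene of these 3 reached 1.5-fold.

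Of 12 expressed G1 cyclins, CDKs and their regulators, 8 read higher in HCT-8/V and 4 lower, with a median of 0.06. Over all expressed genes 52.8% read higher and 24.0% were past 1.5-fold. CCND3, another D cyclin, read 1964 in HCT-8/V and 1424 in HCT-8. CDK7, the kinase that activates CDKs, read 1078 in HCT-8/V and 866 in HCT-8. CCNE1, the cyclin that drives CDK2, was the one member of the list past 1.5-fold, at 259 in HCT-8/V and 153 in HCT-8, but its other probe read 5.44 in HCT-8/V and 19.3 in HCT-8. The S-phase cyclin CCNA2 read 414 in HCT-8/V and 485 in HCT-8. The ubiquitin ligase gene FBXW7, which clears cyclin E, had a log2 difference of -0.34 on its brightest probe, which was dim. With the mean of its 4 probes FBXW7 differed by 0.01. CDC25A, a phosphatase that activates CDKs, had a log2 difference of 0.22. Probes disagreed for several genes. CKS1B read 3035 in HCT-8/V and 3319 in HCT-8 on its brightest probe but 2167 in HCT-8/V and 1633 in HCT-8 on the other. CCNH read 580 in HCT-8/V and 596 in HCT-8 but 347 in HCT-8/V and 307 in HCT-8 on its other probe, and the other CDC25A probe was dim at 27.2 in HCT-8/V and 36.1 in HCT-8. On second brightest probes 2 genes of the list were higher and 5 lower, with a median of -0.34. CDK6, the partner of CDK4 among D-cyclin kinases, differed by 0.09, and CCND2 was below the floor on both arrays. CDK2 differed by 0.04 on its brightest probe but by -0.15 with the mean of its 2 probes.

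Among the pocket proteins, E2F factors and their DP partners, 8 of 12 read higher and 4 lower, with a median of 0.12, where 52.8% of all expressed genes read higher. RBL2, the relative of RB1 that encodes p130, read 294 in HCT-8/V and 367 in HCT-8, a log2 difference of -0.32, and RBL1, encoding p107, was dim at 34.9 in HCT-8/V and 31.3 in HCT-8. Of the E2F genes, E2F4 (0.36), E2F2 (0.34) and the dim E2F1 (0.21) had positive log2 differences and E2F5 (-0.38) and E2F7 (-0.22) negative ones. E2F8 was past 1.5-fold at 26.3 in HCT-8/V and 15.04 in HCT-8, close to the floor. TFDP1, a DP partner of the E2Fs, differed by -0.07. On second brightest probes 1 gene was higher and 2 lower, with a median of -0.27.

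Known E2F targets read higher in HCT-8/V for 19 of 27 expressed genes, with a median of 0.17, where 52.8% of expressed genes read higher. Among the 23 brighter ones, 15 read higher and 8 lower, where 53.2% of genes that bright read higher. The direction depended on the probe: on second brightest probes 2 were higher and 10 lower, with a median of -0.31. Averaging all probes of a gene gave 16 higher and 11 lower. MCM5 of the replicative helicase read 510 in HCT-8/V and 364 in HCT-8, and CDT1, which loads that helicase, read 324 in HCT-8/V and 246 in HCT-8. RRM2, a ribonucleotide reductase subunit, read 132 in HCT-8/V and 236 in HCT-8, its partner RRM1 read 3714 in HCT-8/V and 4676 in HCT-8, and MCM3 read 4426 in HCT-8/V and 5081 in HCT-8. The targets thus did not share a direction: 3 of 27 were past 1.5-fold, where 24.0% of all expressed genes were. CCNE1 was higher, RRM2 lower, and MYBL2, at 39.9 in HCT-8/V and 0.434 in HCT-8, was at least 3.21-fold higher against the floor. MYBL2 falls outside the rule for naming genes and was chosen after its value was seen.

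Regulators of MDM2 and p53 read lower in HCT-8/V for 13 of 16 expressed genes, with a median of -0.17, where 47.1% of all expressed genes read lower. On second brightest probes 4 were higher and 3 lower, with a median of 0.02. MDM4, the relative of MDM2 that masks p53, read 45.6 in HCT-8/V and 89.0 in HCT-8 on its single, dim probe. Its log2 difference was -0.96, in a brightness class where 41.2% of genes were past 1.5-fold. CHEK2, a checkpoint kinase that phosphorylates p53, read 265 in HCT-8/V and 379 in HCT-8, and its second bright probe read 217 in HCT-8/V and 269 in HCT-8. TP53BP1 of the DNA break response read 383 in HCT-8/V and 546 in HCT-8, and the acetyltransferase gene CREBBP read 412 in HCT-8/V and 534 in HCT-8. These 4 were the lowest of the list and include both factors that restrain p53 and factors that activate it. HIPK2, a kinase that activates p53, read 195 in HCT-8/V and 140 in HCT-8, but 79.4 in HCT-8/V and 121 in HCT-8 on another probe. The dim ATR, a kinase of replication stress, differed by 0.98, and the ribosomal protein gene RPL23, whose product can bind MDM2, by 0.05.

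Of 28 expressed genes that p53 is known to induce, 14 read higher in HCT-8/V and 14 read lower, and the median was 0.00. That split was near that of all expressed genes, of which 52.8% read higher. RPRM, which encodes the G2 arrest mediator reprimo, was the one past 2-fold, at 84.3 in HCT-8/V and 19.5 in HCT-8, a log2 difference of 2.11 on a dim probe. AEN, an apoptosis-enhancing nuclease, read 431 in HCT-8/V and 272 in HCT-8 on its brighter probe and 164 in HCT-8/V and 183 in HCT-8 on the other. SUSD6 read 127 in HCT-8/V and 89.3 in HCT-8, and BAX, which permeabilises mitochondria, read 96.2 in HCT-8/V and 68.2 in HCT-8. Another BAX probe was nearly level, at 47.6 in HCT-8/V and 48.6 in HCT-8, and its remaining probe was below the floor on both arrays. In the other direction, SFN, which encodes a 14-3-3 protein of the G2 checkpoint, read 289 in HCT-8/V and 441 in HCT-8. The phosphatase gene PPM1D, which damps p53, read 350 in HCT-8/V and 435 in HCT-8, and RRM2B and POLH were dim, with log2 differences of -0.85 and -0.36. Bright targets such as ZMAT3 (-0.04) and CCNG1 (0.08) were nearly level.

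**Figure D3:**
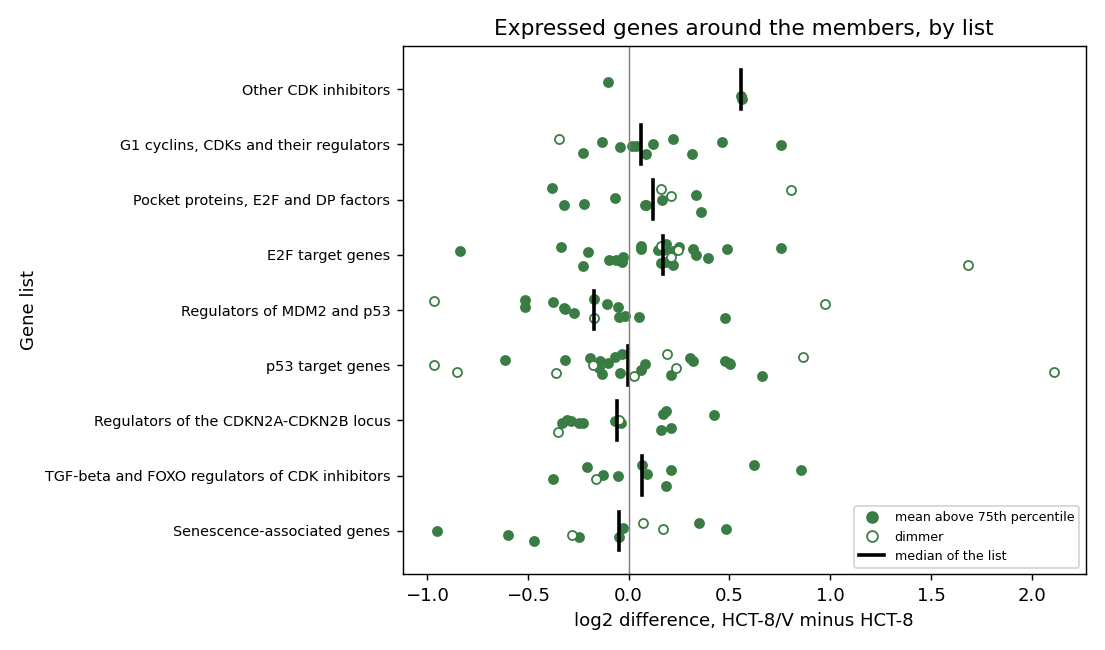
The log2 difference (HCT-8/V minus HCT-8) of each expressed gene in the 9 lists around the members, with filled points for a mean intensity above the 75th percentile, open points for dimmer genes and a black bar at the median of the list. On these brightest probes E2F targets lie mostly to the right of 0 and MDM2 and p53 regulators mostly to the left, both of which changed on second probes, and p53 targets lie on both sides, with RPRM at 2.11 the farthest point.

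Of 14 expressed regulators of the CDKN2A and CDKN2B locus, 5 read higher in HCT-8/V and 9 lower, and none was past 1.5-fold. Over all expressed genes 52.8% read higher and 24.0% were past 1.5-fold. Of the 14, 12 had a mean intensity above the 75th percentile, where 10.5% of genes were past 1.5-fold. The Polycomb genes SUZ12 and EED, whose complex represses the locus, had log2 differences of -0.29 and -0.31, and their catalytic partner EZH2 one of 0.16. BMI1, the Polycomb gene best known for repressing p16, read 520 in HCT-8/V and 544 in HCT-8. CBX7 (0.17) and TBX3 (0.21), both repressors, were slightly positive, and KDM6B (-0.35) and ETS1 (-0.33), both activators, slightly negative. ID1, an inhibitor of basic helix-loop-helix factors, read 423 in HCT-8/V and 315 in HCT-8, but 17.9 in HCT-8/V and 25.9 in HCT-8 on its other probe. TWIST1 read 185 in HCT-8/V and 163 in HCT-8, and whether its probe would read a transcript from the plasmid was not checked.

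Of the TGF-beta and FOXO regulators of CDK inhibitors, 6 of 11 read higher in HCT-8/V and 5 lower, with a median of 0.07 that was -0.05 with the mean of all probes. Over all expressed genes 52.8% read higher and 24.0% were past 1.5-fold. ZBTB17, which encodes MIZ1, an activator of CDKN2B and CDKN1A, read 115 in HCT-8/V and 63.4 in HCT-8, a log2 difference of 0.86. SP1, the factor that binds GC boxes such as those shown at CDKN1A, read 593 in HCT-8/V and 385 in HCT-8, a log2 difference of 0.62. These were the list's 2 genes past 1.5-fold, each with 1 probe. SMAD3, a mediator of TGF-beta, read 269 in HCT-8/V and 349 in HCT-8. KLF4, SMAD2 and FOXO1 had log2 differences of -0.21, -0.16 and -0.13, and KLF6 one of 0.21. TGFBR2 differed by 0.19 on its brightest probe, but its second bright probe read 477 in HCT-8/V and 486 in HCT-8.

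Among genes associated with senescence, 4 of 11 expressed genes read higher in HCT-8/V and 7 lower, with a median of -0.05 that was 0.07 with the mean of all probes. The share that read higher over all expressed genes was 52.8%. HMGA1, a chromatin protein of senescence foci, read 1930 in HCT-8/V and 3723 in HCT-8, a log2 difference of -0.95 on the only probe of 3 above the floor. The cytokine gene IL6 read 74.9 in HCT-8/V and 113 in HCT-8. GLB1, the lysosomal galactosidase behind the usual senescence stain, read 938 in HCT-8/V and 736 in HCT-8, and its second bright probe read 683 in HCT-8/V and 541 in HCT-8. IGFBP3, a secreted binding protein, read 234 in HCT-8/V and 168 in HCT-8 and was also higher on its second probe, at 85.4 in HCT-8/V and 35.2 in HCT-8. HMGB2, LMNB1 and MMP3 had log2 differences of -0.24, 0.07 and 0.17. PLAUR, the urokinase receptor gene, differed by -0.47 on its brightest probe and by 0.28 with the mean of its 3 probes. The secreted factors thus did not share a direction.

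The 3 nearest genes with a probe on each side of all 9 members, CDKN2C included, 49 genes without the members themselves, were read for a shift shared along the chromosome. Of these, 32 were expressed and 7 of the 32 were past 1.5-fold, where 24.0% of all expressed genes were. In HCT-8/V 15 read higher and 17 read lower, where 52.8% of all expressed genes read higher. Next to CDKN2A, MTAP of the methionine salvage pathway read 316 in HCT-8/V and 293 in HCT-8, and the antisense gene CDKN2B-AS1 was below the floor on both arrays. Next to RB1, ITM2B read 2538 in HCT-8/V and 3083 in HCT-8 and MED4 of the Mediator complex 233 in HCT-8/V and 188 in HCT-8. RCBTB2, also beside RB1, read 56.0 in HCT-8/V and 8.77 in HCT-8, at least 4.51-fold higher against the floor. Around CDKN1A, KCTD20 read 411 in HCT-8/V and 661 in HCT-8, the kinase gene STK38 read 318 in HCT-8/V and 503 in HCT-8, and the dim C6orf89 differed by -0.90. CYP27B1 beside CDK4 (48.1 in HCT-8/V and 18.4 in HCT-8) and MYEOV beside CCND1 (33.1 in HCT-8/V and 60.6 in HCT-8) were past 1.5-fold and dim. CPSF6 beside MDM2, also dim, read 19.8 in HCT-8/V and 10.7 in HCT-8, at least 1.59-fold higher against the floor. The genes beside MDM2 that were brighter, NUP107 and SLC35E3, differed by 0.01 and -0.14.

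**Figure D4:**
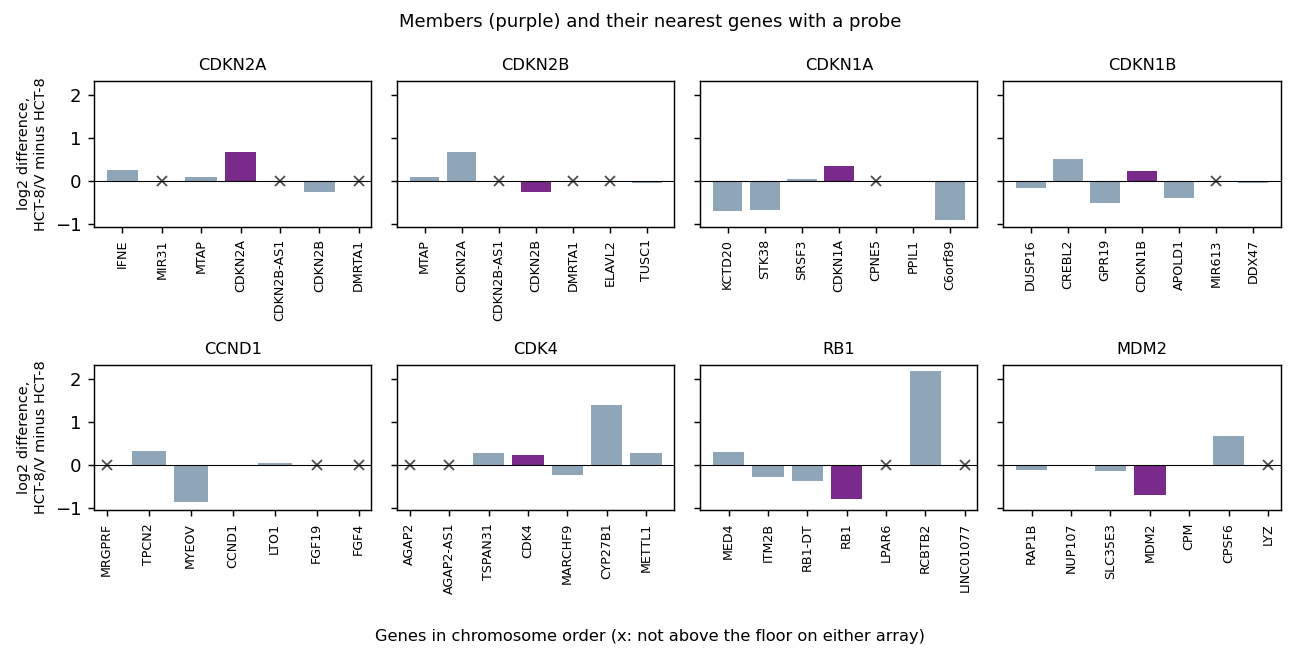
The log2 difference (HCT-8/V minus HCT-8) of 8 members, in purple, and of the 3 nearest genes with a probe on each side, in blue-grey, in chromosome order. Crosses mark genes above the floor on neither array, and a gene above it on 1 array is drawn at its bound. RB1 and CDKN2A have bars of mixed direction beside them, and 3 of the neighbours of CDKN1A are past 1.5-fold lower while CDKN1A itself is higher.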

How the data were processed

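RNA of HCT-8/V and HCT-8 was measured on 1 array each. The deposited table gives 1 linear intensity per probe and array. How the authors corrected background and scaled the arrays is not stated in the labels. Both deposited columns share their minimum (-44.98) and maximum (19759), and 29.2% of probes are below 0, so by their values the distributions were matched before deposit and a global shift cannot be seen. Genes were named by the platform annotation, updated through the Entrez ID for 30074 of 30113 probes with 1 symbol (RefSeq, GRCh38.p14), and the 17210 other probes were left out. The brightest probe stood for each of 20046 genes. Calculations used Python 3.11.15 with pandas 2.3.3 and statsmodels 0.14.6, and were tested on simulated data.

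With 1 array per line there is no test and no p-value. Precision is limited by the number of arrays, and a difference in the share of cells with a transcript cannot be told apart from one in RNA per cell. The members and gene lists were chosen with earlier results of these data known. By rule the text names every member, the 4 largest differences in each direction per list where both arrays exceeded the floor, brighter genes past 1.5-fold, and neighbours past 1.5-fold. Other list genes given as level, absent or as bearing on a member were chosen after their values were seen. Alternatives covered the probe, the floor, the normalization and the fold threshold.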

Additional observations from a re-analysis of the deposited data

How the results depend on the processing

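No member turned direction with the mean of all probes, no floor (45.98 added to every value) or a floor at the 75th percentile (where MDM2 has no value). Nor did any with quantile normalization, median centring or removal of a loess trend. Most of these settings could hardly turn one. An added constant or a higher floor cannot turn the sign of a probe above the floor. The mean cannot where only 1 probe is above it. The arrays were already matched, and median centring took only 0.03 from each difference. Sizes did change: MDM2 was at -0.35 with the mean of probes and -0.37 with no floor, RB1 at -0.56 with no floor, and CDKN2A at 0.31 with the mean of probes and 0.25 with the second brightest. CDKN1B turned to -0.12 on its second probe. At a fold threshold of 3, 0 members were past it. At 1.5, 3 were, but 1 with the mean of probes (RB1), 1 with no floor (CDKN2A) and 0 with second probes, counts chosen after seeing the data.

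With the second brightest probe, which fewer genes have, 43.1% of 3803 genes were higher and their median was -0.08. There 1 member was higher and 2 lower. The higher and lower counts were 2 and 5 for G1 regulators (median -0.34), 1 and 2 for pocket and E2F genes (-0.27), 2 and 10 for E2F targets (-0.31), 4 and 3 for MDM2 and p53 regulators (0.0202), 2 and 6 for p53 targets (-0.12), 1 and 3 for locus regulators (-0.21), 0 and 4 for TGF-beta and FOXO regulators (-0.19) and 4 and 1 for senescence genes (0.23). The medians thus changed sign in 6 of these lists, and the cause was not tested. With the mean of probes they also changed sign for TGF-beta and FOXO regulators (-0.0505) and senescence genes (0.0713), and with the higher floor for p53 targets (0.0097). That floor, which leaves fewer genes, gave 5 higher pocket and E2F genes and 2 higher senescence genes. No paired analysis was possible because each line has 1 array.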
